A study of Mus musculus with 8 samples.

Results

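The tumour suppressor gene Trp53 and 8 genes that its protein, p53, switches on (Mdm2, Ccng1, Phlda3, Sesn2, Zmat3, Trp53inp1, Btg2 and Perp) were followed in mouse hematopoietic stem cells (HSCs) with and without mutant Nras. They were taken by name: every non-control probe that the array files assign to one of these symbols was read, which gave 17 probes of 41174 and 9 gene names of 27600. Because 2 of the probes were printed 10 times, the 17 probes filled 35 spots on each array. RNA of 8 bone marrow HSC samples, labelled with Cy3, had been put on 8 Agilent 1-colour arrays. The Nras+/+ group (n = 2) carried no mutant allele, NrasG12D/+ (n = 3) carried 1 and NrasG12D/G12D (n = 3) carried 2, all in mice of strain B6. NrasG12D is a point mutant of the small GTPase Nras that is slow to switch off, and how the allele was introduced, at what age cells were taken and how they were sorted were not given in the sources used here. No label states that the samples came from separate animals, so the p-values measure the spread between these samples, part of which may be technical. In RNA of whole cell samples, fewer cells that express a gene and less RNA per cell cannot be told apart.

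p53 is a transcription factor that is kept scarce by the ubiquitin ligase Mdm2 and accumulates when DNA is damaged or an oncogene drives a cell too hard. It then binds paired copies of a short sequence, the half-site, near genes that halt the cell cycle, aid repair, change metabolism or kill the cell. Mdm2 is itself such a target, which closes a feedback loop. In HSCs p53 is known for holding cells in quiescence, and lasting Ras signalling can engage it in what is called oncogene-induced senescence. Much of p53 control acts on the protein, which these arrays do not measure. Of the 9 genes, Btg2, Ccng1 and Sesn2 are tied mainly to growth restraint and stress defence, Zmat3 encodes an RNA-binding protein, and Trp53inp1, Perp and Phlda3 are tied more to cell death and survival signalling than to arrest.

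The sequences on which the readings rest came from the array files, as 60-base probes written 5′ to 3′. The first pair are the probes printed 10 times per array, which allow the error of a reading to be seen. The other pair read Ccng1, the only tested member whose brightest probe had a higher mean in NrasG12D/G12D than in both other groups, and a second region of Btg2. In the files, which name no genome build, they lie at chr11:69405827-69405886 on the plus strand (Trp53), and on the minus strand at chr10:117095662-117095721 (Mdm2), chr11:40594334-40594393 (Ccng1) and chr1:135894015-135894074 (Btg2). Each of them reads through without a stop codon in at least 1 of the 3 forward frames.
Trp53 probe 2: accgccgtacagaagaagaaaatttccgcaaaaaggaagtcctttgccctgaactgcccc
Mdm2: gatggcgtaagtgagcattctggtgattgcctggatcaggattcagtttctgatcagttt
Ccng1: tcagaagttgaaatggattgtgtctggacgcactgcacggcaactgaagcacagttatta
Btg2 probe 2: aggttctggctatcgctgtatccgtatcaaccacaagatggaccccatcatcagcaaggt

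A probe of another kind stands for Trp53inp1. Its brighter probe begins with 2 exact copies, end to end, of a 26-base unit, so that any transcript with this repeat could be caught by it.
Trp53inp1 probe 1, repeat unit: agtactaatacttaccacagcaggcg

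Promoter windows of 300 bases (250 before to 50 after the start site, RefSeq, build GRCm38.p6) were given for 6 of the 9 genes, all but Zmat3, Trp53inp1 and Perp. They were searched on both strands for an exact match to the 10-base p53 half-site consensus, which is its own reverse complement, so that each match counts for both strands and overlapping matches are counted singly. The windows of Trp53, Mdm2 and Ccng1 held 1 match each, those of Phlda3, Sesn2 and Btg2 none, and 8.36% of 32851 windows of that length held at least 1. Cdkn1a, which encodes the cell cycle inhibitor p21 and is the best known p53 arrest target, held 2 matches in 1 of its 2 windows. Each match is shown in capitals on a line of its own with 20 bases on each side, and the lines of the 2 Cdkn1a matches overlap; a match is a description of the letters and not a bound site, and a window without one says only that these letters are not there.
Trp53, chr11:69580264-69580313, plus strand: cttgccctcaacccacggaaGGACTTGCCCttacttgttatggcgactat
Mdm2, chr10:117710915-117710964, minus strand: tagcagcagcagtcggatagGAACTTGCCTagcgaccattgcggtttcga
Ccng1, chr11:40755442-40755491, minus strand: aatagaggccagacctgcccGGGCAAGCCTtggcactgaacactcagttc
Cdkn1a, chr17:29090886-29090935, plus strand: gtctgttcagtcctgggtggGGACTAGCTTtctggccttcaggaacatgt
Cdkn1a, chr17:29090908-29090957, plus strand: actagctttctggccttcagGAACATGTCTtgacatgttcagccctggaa

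Values below are of 2 kinds. The processed signal is the scanner's brightness of a probe after background subtraction, on a linear scale and not matched between arrays. The scaled level is the log2 signal minus the log2 reference signal of its array, the 75th percentile over 6576 probes detected on every array; that reference ranged from 115 to 354.75. A log2 change is a difference between group means of scaled levels, and its error and p come from 1 limma fit over the 14966 genes tested, with the brightest tested probe standing for a gene and p-values adjusted by Benjamini-Hochberg. Between 26.0% and 42.4% of spots were well above background on an array, and the lowest signal so classed was between 7.98 and 11.3. The arrays came on 2 slides. The Nras+/+ pair shared slide 1 with the first 2 NrasG12D/+ replicates, and the last NrasG12D/+ replicate shared slide 2 with all of NrasG12D/G12D. Nras+/+ and NrasG12D/G12D share no slide, so a fit with the slide as a block compares them only through the heterozygous arrays, of which 1 lies on slide 2. A value within slide 1 sets 2 arrays against 2 and one within slide 2 sets 3 arrays against 1. Where 3 values are given in a row without names, they follow the order NrasG12D/+ against Nras+/+, NrasG12D/G12D against Nras+/+, NrasG12D/G12D against NrasG12D/+. Of 14 HSC markers on the array, 5 to 10 were well above background on an array, while Procr and Gata2 were so on none. NrasG12D/+ replicate 1 stood apart: its summed HSC markers were at 13793% of the reference, against 225% to 658% on the other arrays, and its summed neutrophil and monocyte markers at 23649%, against 65.3% to 1113%. S100a8 and Camp of that second list were above background on no array. NrasG12D/+ replicate 1 had 10 of 14 HSC and 6 of 10 neutrophil and monocyte markers above background. NrasG12D/+ replicate 2 had 7 and 6, with a summed neutrophil and monocyte level of 191%. A summed level can be set by a few bright probes, so it does not show that many markers were high. The summed level ranged over the 8 arrays from 48.6% to 110% for erythroid, 131% to 424% for megakaryocyte, 166% to 357% for B cell, 92.9% to 1201% for T and NK cell, and 51.7% to 1195% for endothelial and stromal markers. The part of other cell types in the results was not tested.

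No member passed an adjusted p of 0.05 in any of the 3 comparisons, and neither did any other gene: the background is 0.0% of genes called in each. Of the 17 probes, 4 were well above background on all 8 arrays (1 each of Trp53 and Btg2 and both of Sesn2), 5 were so on no array, and 12, reading 8 genes, were tested. Phlda3, which encodes an inhibitor of the kinase Akt, was the gene left without a value: its only probe gave 1.94 to 2.61 and was above background nowhere. The other undetected probes were further probes of Mdm2, Ccng1, Zmat3 and Btg2. At an unadjusted p under 0.05, limma singled out 0 of the 8 genes for NrasG12D/+ against Nras+/+, where the background is 4.76% of genes, and 1 (Perp) for NrasG12D/G12D against Nras+/+, where it is 6.53%. It singled out 0 between the mutant genotypes, where the background is 5.95%.

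**Figure D1:**
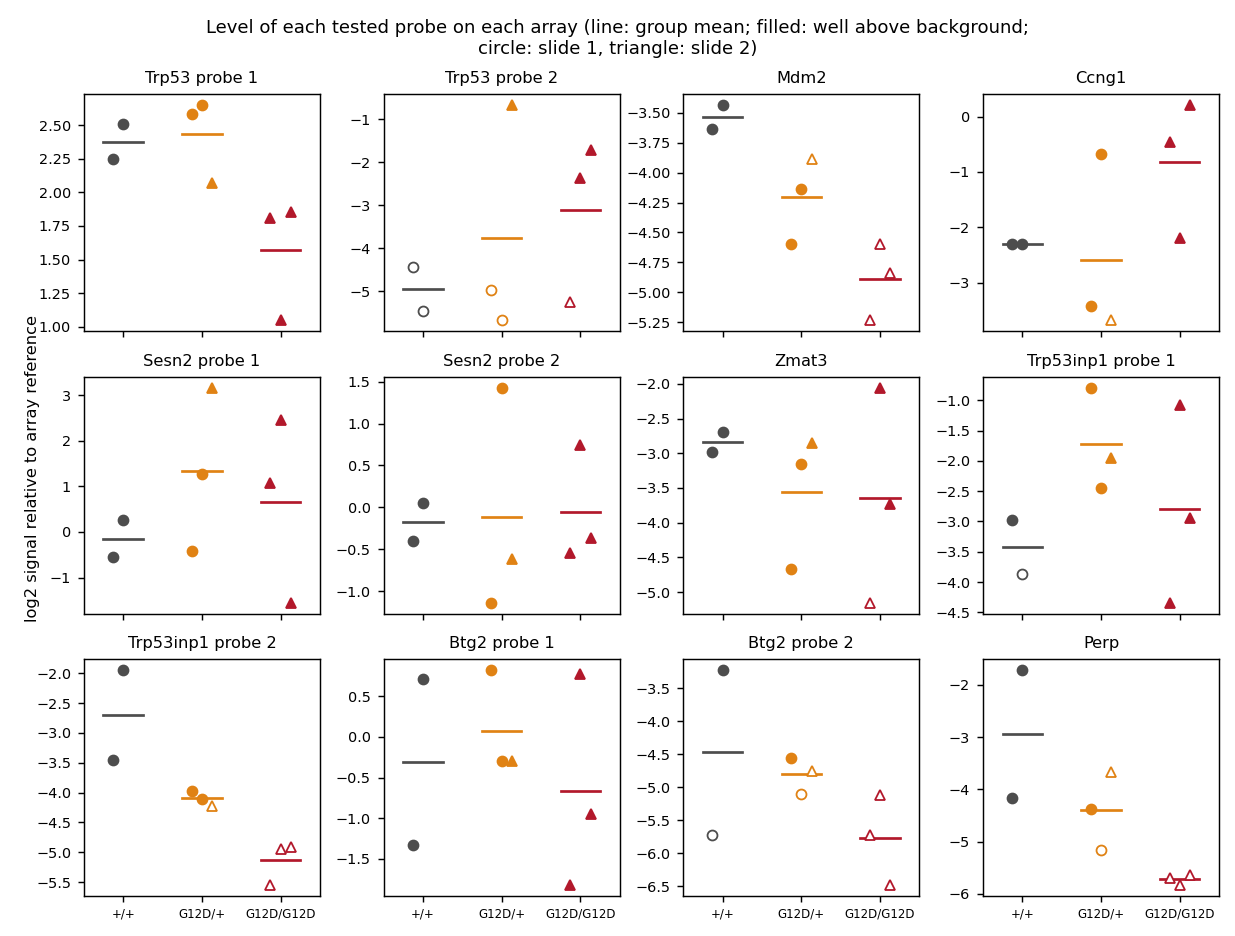
Scaled level (log2 signal relative to the array reference, y axis) of the 12 tested probes on each of the 8 arrays, by Nras genotype (x axis); lines are group means, filled symbols are well above background, circles are slide 1 and triangles slide 2. Mdm2, Perp and Trp53inp1 probe 2 are open on all 4 arrays of slide 2, whereas Trp53 probe 2 is filled on 3 arrays of slide 2 only.

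Trp53 itself was read by both of its probes, and they did not tell the same story. Probe 1, a single spot, gave processed signals of 906 and 655 in Nras+/+, of 2130, 1700 and 536 in NrasG12D/+, and of 976, 304 and 659 in NrasG12D/G12D. All 8 were well above background. On the scaled level the group means were 2.38 ± 0.19 (SD, n = 2), 2.43 ± 0.32 (SD, n = 3) and 1.57 ± 0.45 (SD, n = 3), and the homozygous arrays lay below every array of both other groups. This was among the steadiest tested probes, with a pooled SD of 0.36 within groups, where the median of 18220 tested probes was 1.07. The log2 change was 0.06 for NrasG12D/+ against Nras+/+ (SE 0.68, 95% interval -1.48 to 1.59, adjusted p = 0.987). For NrasG12D/G12D it was -0.81 against Nras+/+ (SE 0.68, 95% interval -2.34 to 0.73, adjusted p = 0.763) and -0.86 against NrasG12D/+ (SE 0.61, 95% interval -2.24 to 0.51, adjusted p = 0.836). The first of these changed sign to -0.42 under quantile normalization, and lay between -0.076 and 0.24 when arrays were left out one at a time. NrasG12D/G12D against Nras+/+ gave -0.32 with all-probe scaling and -0.18 in the value table.

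Probe 2 of Trp53, with its 10 spots, gave a different pattern. Its mean signals were 8.80 and 2.62 in Nras+/+, 11.3, 5.28 and 80.6 in NrasG12D/+, and 7.25, 28.6 and 55.9 in NrasG12D/G12D. Only the last NrasG12D/+ array and the last pair of NrasG12D/G12D arrays, all on slide 2, were well above background. On these 3 arrays all 10 spots were so, with coefficients of variation over spots of 6.25%, 10.2% and 9.73%, and on the other 5 they were 23.0% to 55.5%. Over the 8 arrays the median SD over spots was 0.36 on the log2 scale, and the pooled SD between arrays of a group was 2.12. Its group means of -4.95 ± 0.72 (SD, n = 2), -3.77 ± 2.71 (SD, n = 3) and -3.11 ± 1.89 (SD, n = 3) overlapped. The mean signal in NrasG12D/G12D was at least 2.001-fold higher than in Nras+/+, where no array was above background. This bound is one on the group mean and rested on 2 arrays of 3. NrasG12D/G12D replicate 1 was not above background, and its scaled level of -5.26 lay between those of the controls, -4.44 and -5.46. The fitted log2 change was 1.84 (SE 1.58, adjusted p = 0.763 over all tested probes). For NrasG12D/+ the bound was at least 1.26-fold higher, and it rested on 1 array of 3. Detection on at least 3 arrays of slide 2 and none of slide 1 was found for 22 of the tested probes, 0.121% of them, a pattern looked for after these values were seen. The part of the slide in this reading was not tested. The files place the probes 9175 bases apart, and the ratio of their signals varied 48.4-fold over the 8 arrays, 5 of which had no detection of probe 2, and was lowest on the 3 that had.

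**Figure D2:**
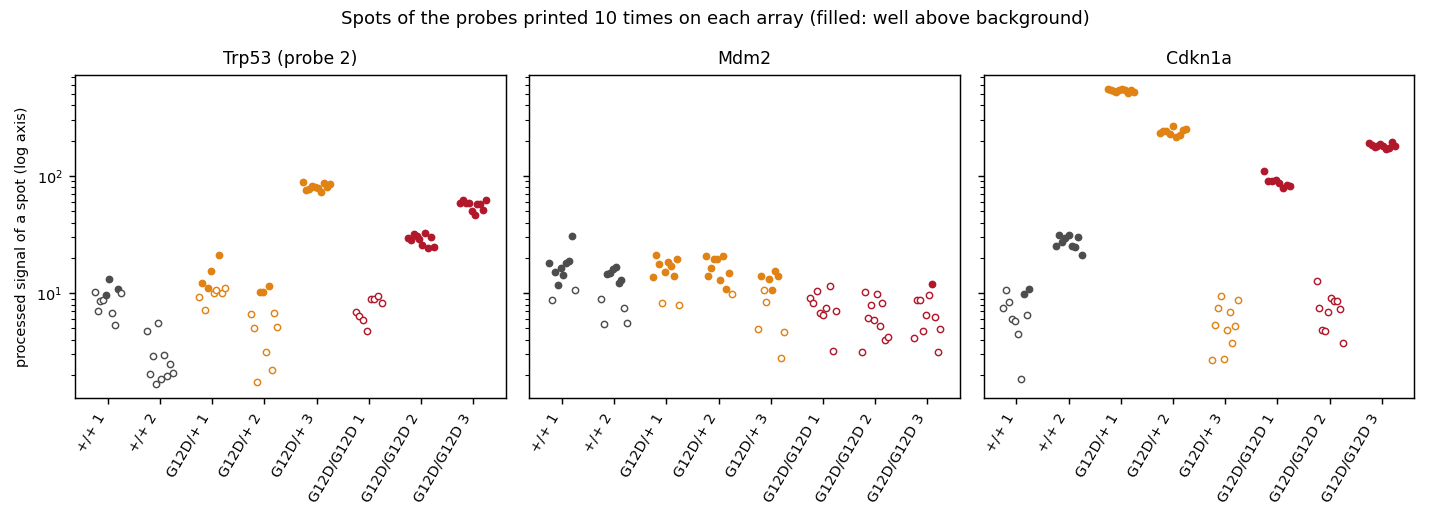
Processed signal of every spot (log axis) of the Trp53, Mdm2 and Cdkn1a probes printed 10 times on each array, by array; outlier spots are left out and filled points are well above background. Spots of one array lie close together wherever the signal is high, and the differences between arrays of one genotype are larger for Trp53 and Cdkn1a than for Mdm2.

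Mdm2, the ligase that holds p53 down and a direct p53 target, was dim everywhere. Its 10-spot probe gave 15.3 and 10.6 in Nras+/+, 14.6, 15.4 and 8.68 in NrasG12D/+, and 7.38, 6.07 and 6.38 in NrasG12D/G12D. An array counts as well above background where most spots of the probe are, which held for the 4 arrays of slide 1 and not for the 4 of slide 2. The margin was narrow: 8, 6, 8 and 9 spots passed on slide 1, and 5 on NrasG12D/+ replicate 3 and 0 or 1 on the homozygous arrays of slide 2. The scaled means went from -3.54 ± 0.14 (SD, n = 2) through -4.21 ± 0.36 (SD, n = 3) to -4.89 ± 0.32 (SD, n = 3). On the scaled level both mutant groups lay below Nras+/+ without overlap, while the mutant groups overlapped each other. In processed signal the NrasG12D/+ arrays overlapped the Nras+/+ arrays. The array references were 191 and 115 in Nras+/+, and 354.75, 271 and 128 in NrasG12D/+. NrasG12D/G12D was at least 1.59-fold lower than Nras+/+, with a fitted log2 change of -1.36 (SE 0.67, 95% interval -2.87 to 0.15, adjusted p = 0.722). With normexp background correction, which adds 50 to every signal and so shrinks changes of dim probes, that change was -0.43, smaller than the bound. It was between -0.87 and -0.73 with all-probe scaling, quantile normalization and the value table. For NrasG12D/+ the change was -0.67 (SE 0.67, 95% interval -2.18 to 0.84, adjusted p = 0.830), and within slide 1 alone it was -0.83. The change between mutant genotypes was -0.69 (SE 0.60, adjusted p = 0.861), within slide 2 it was -1.01, and with normexp background correction it changed sign to 0.062. At these signals the median SD over the spots of an array, 0.55, was above the pooled SD between arrays, 0.31, and the standard error of a mean over the spots was 0.18. The second Mdm2 probe, at 1.80 to 5.18, was above background on no array.

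Btg2 encodes an antiproliferative protein that binds the mRNA deadenylation machinery. Probe 1 was above background on all arrays, at 75.7 and 188 in Nras+/+, 628, 220 and 104 in NrasG12D/+, and 78.3, 251 and 94.4 in NrasG12D/G12D. The 3 groups overlapped fully, with scaled means of -0.31 ± 1.45 (SD, n = 2), 0.07 ± 0.65 (SD, n = 3) and -0.67 ± 1.32 (SD, n = 3). The log2 changes were 0.39 for NrasG12D/+ against Nras+/+ (SE 1.002, adjusted p = 0.932), -0.36 for NrasG12D/G12D against Nras+/+ (SE 1.002, adjusted p = 0.928) and -0.74 between the mutants (SE 0.90, adjusted p = 0.895). The direction against Nras+/+ hung on single arrays: without Nras+/+ replicate 1 the heterozygous change was -0.63, and the homozygous one was 0.67 without Nras+/+ replicate 2 and 0.22 without NrasG12D/G12D replicate 1. The homozygous change was also positive when scaled over all probes (0.13), in the deposited value table (0.27) and with the slide as a block (0.20). Probe 2, whose sequence is given above, was above background on 1 Nras+/+ and 1 NrasG12D/+ array, with 3.63 and 12.3 in Nras+/+, 15.0, 7.89 and 4.76 in NrasG12D/+ and 5.28, 4.24 and 2.04 in NrasG12D/G12D. The ratio between the probes varied 3.99-fold over the arrays, on 6 of which probe 2 was not above background.

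Ccng1 encodes cyclin G1, which recruits a phosphatase to Mdm2. Its signals were 39.0 and 23.3 in Nras+/+, 33.2, 169 and 10 in NrasG12D/+, and 203, 32.0 and 211 in NrasG12D/G12D. Every array but NrasG12D/+ replicate 3 was above background. Scaled for the array, the Nras+/+ pair was nearly identical at -2.30 ± 0.01 (SD, n = 2), the heterozygous arrays spread to both sides at -2.59 ± 1.66 (SD, n = 3), and the homozygous ones stood above the controls at -0.82 ± 1.24 (SD, n = 3), although the lowest of them, at -2.20, was close to the higher control, at -2.29. The log2 change was 1.48 for NrasG12D/G12D against Nras+/+ (SE 1.099, 95% interval -1.01 to 3.98, adjusted p = 0.748) and 1.78 against NrasG12D/+ (SE 0.98, 95% interval -0.45 to 4.01, adjusted p = 0.806), and within slide 2 it was 2.86. Both kept their sign in every alternative run, at 0.76 and 0.94 with normexp background correction. NrasG12D/+ against Nras+/+ gave -0.29 (SE 1.099, adjusted p = 0.950), which turned to 0.25 within slide 1, that is without NrasG12D/+ replicate 3, and to 0.12 without NrasG12D/+ replicate 1.

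Sesn2 encodes sestrin 2, a stress-induced restraint on mTORC1 signalling that both p53 and ATF4 can switch on. Probe 1 gave 130 and 138 in Nras+/+, 264, 657 and 1150 in NrasG12D/+, and 589, 806 and 62.3 in NrasG12D/G12D, all above background. Unscaled, the heterozygous arrays were all brighter than the controls, but the arrays' references differed too, and on the scaled level the groups overlapped: -0.15 ± 0.58 (SD, n = 2), 1.34 ± 1.80 (SD, n = 3) and 0.66 ± 2.04 (SD, n = 3). The log2 change was 1.49 for NrasG12D/+ (SE 1.35, 95% interval -1.58 to 4.55, adjusted p = 0.820) and 0.81 for NrasG12D/G12D against Nras+/+ (SE 1.35, adjusted p = 0.873). With the slide as a block, these became 0.57 and -1.93. Without NrasG12D/G12D replicate 2 the homozygous value was -0.09. The change between the mutants was -0.68 (SE 1.21, adjusted p = 0.936), turning to 0.24 without NrasG12D/+ replicate 3 and to 0.43 without NrasG12D/G12D replicate 3.

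Probe 2 of Sesn2 also stood above background on all arrays, at 145 and 119 in Nras+/+, 161, 730 and 83.2 in NrasG12D/+, and 190, 246 and 142 in NrasG12D/G12D. Its log2 changes were near 0 in all comparisons: 0.06 (SE 0.92), 0.12 (SE 0.92) and 0.05 (SE 0.83), in the order given for the other genes. In processed signal, NrasG12D/+ replicate 3 was the brightest array for probe 1 and the dimmest for probe 2, and the ratio of the probes varied 31.5-fold over the arrays.

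**Figure D3:**
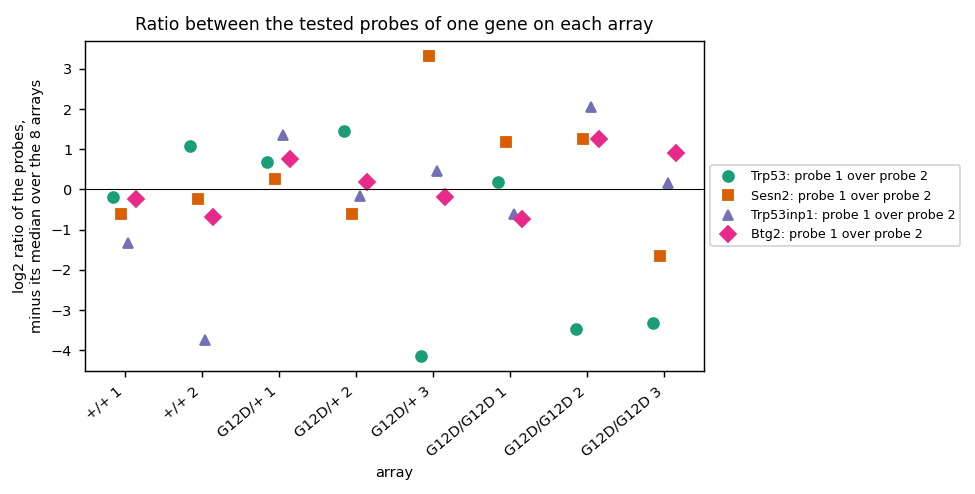
Log2 ratio of the signals of the 2 tested probes of Trp53, Sesn2, Trp53inp1 and Btg2 on each array (x axis), with the median over the 8 arrays subtracted (y axis), so that 0 marks an array at the gene's usual ratio. The ratio varied 48.4-fold for Trp53, 31.5-fold for Sesn2, 55.1-fold for Trp53inp1 and 3.99-fold for Btg2, but probe 2 was above background on 3, 8, 4 and 2 arrays in that order of genes, and ratios from arrays without detection rest on readings near background.

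Zmat3, also known as Wig1, encodes a zinc finger protein that binds double-stranded RNA. The tested probe gave 24.1 and 17.7 in Nras+/+, 14.0, 30.3 and 17.8 in NrasG12D/+, and 7.81, 35.4 and 13.7 in NrasG12D/G12D, with 7 of 8 arrays above background. The scaled means of -2.84 ± 0.20 (SD, n = 2), -3.56 ± 0.97 (SD, n = 3) and -3.65 ± 1.55 (SD, n = 3) overlapped throughout. Log2 changes were -0.71 (SE 1.02, adjusted p = 0.866) for NrasG12D/+, -0.81 (SE 1.02, adjusted p = 0.827) for NrasG12D/G12D against Nras+/+, and -0.09 (SE 0.91, adjusted p = 0.991) between the mutants. The last of these turned positive, between 0.20 and 0.36, with all-probe scaling, quantile normalization, normexp correction and the value table. On the scaled level NrasG12D/G12D replicate 2 was the highest of all 8 arrays and NrasG12D/G12D replicate 1 the lowest.

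Trp53inp1 encodes a stress-induced protein that promotes p53 phosphorylation and autophagy. Probe 1, the repeat probe, gave 24.4 and 7.84 in Nras+/+, 205, 49.9 and 33.2 in NrasG12D/+, and 13.7, 69.4 and 23.7 in NrasG12D/G12D. The heterozygous arrays all exceeded the controls, with scaled means of -3.42 ± 0.64 (SD, n = 2) and -1.73 ± 0.85 (SD, n = 3), while the homozygous group, at -2.79 ± 1.64 (SD, n = 3), overlapped both. The log2 change for NrasG12D/+ against Nras+/+ was 1.70 (SE 1.04, 95% interval -0.66 to 4.05, adjusted p = 0.816). It was 1.81 within slide 1 and 0.44 with normexp background correction. For NrasG12D/G12D it was 0.63 against Nras+/+ (SE 1.04, adjusted p = 0.872), or -0.22 without NrasG12D/G12D replicate 2 and 0.070 with normexp, and -1.06 against NrasG12D/+ (SE 0.93, adjusted p = 0.861).

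Probe 2 of Trp53inp1 ran the other way. It gave 17.4 and 29.8 in Nras+/+, 22.7, 15.8 and 6.85 in NrasG12D/+, and 5.92, 4.79 and 6.07 in NrasG12D/G12D. Its scaled means stepped down without overlap between any pair of groups, from -2.70 ± 1.07 (SD, n = 2) to -4.10 ± 0.13 (SD, n = 3) and -5.14 ± 0.36 (SD, n = 3). In processed signal the NrasG12D/+ arrays overlapped the Nras+/+ arrays. In the fit of all 18220 tested probes the log2 change was -1.39 for NrasG12D/+ (SE 0.73, adjusted p = 0.820). NrasG12D/G12D was at least 2.83-fold lower than Nras+/+, with a fitted change of -2.43 (SE 0.73, 95% interval -4.10 to -0.77, adjusted p = 0.708). Here too the 4 arrays of slide 1 were above background and the 4 of slide 2 were not. The ratio between the probes of this gene varied 55.1-fold, including arrays without detection.

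Perp encodes a membrane protein of desmosomes that p53 induces in apoptosis. Its probe gave 10.6 and 35.0 in Nras+/+, 17.1, 7.60 and 10.1 in NrasG12D/+, and 5.36, 2.57 and 3.67 in NrasG12D/G12D. It was above background on both control arrays, on NrasG12D/+ replicate 1 and on no homozygous array. The scaled means were -2.94 ± 1.74 (SD, n = 2), -4.40 ± 0.75 (SD, n = 3) and -5.72 ± 0.10 (SD, n = 3). The homozygous arrays lay below all others, and the heterozygous group overlapped the controls. NrasG12D/G12D was at least 2.39-fold lower than Nras+/+, with a fitted log2 change of -2.78 (SE 0.89, 95% interval -4.79 to -0.77, adjusted p = 0.722). It ranged from -4.01 to -1.55 when arrays were left out singly, with -1.55 reached without Nras+/+ replicate 2, the brightest array, and it was -0.66 with normexp background correction. For NrasG12D/+ the change was -1.45 (SE 0.89, adjusted p = 0.816), or -0.23 without Nras+/+ replicate 2, and between the mutants it was -1.33 (SE 0.79, adjusted p = 0.824), or -2.06 within slide 2. With normexp correction these became -0.73 and 0.074.

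**Figure D4:**
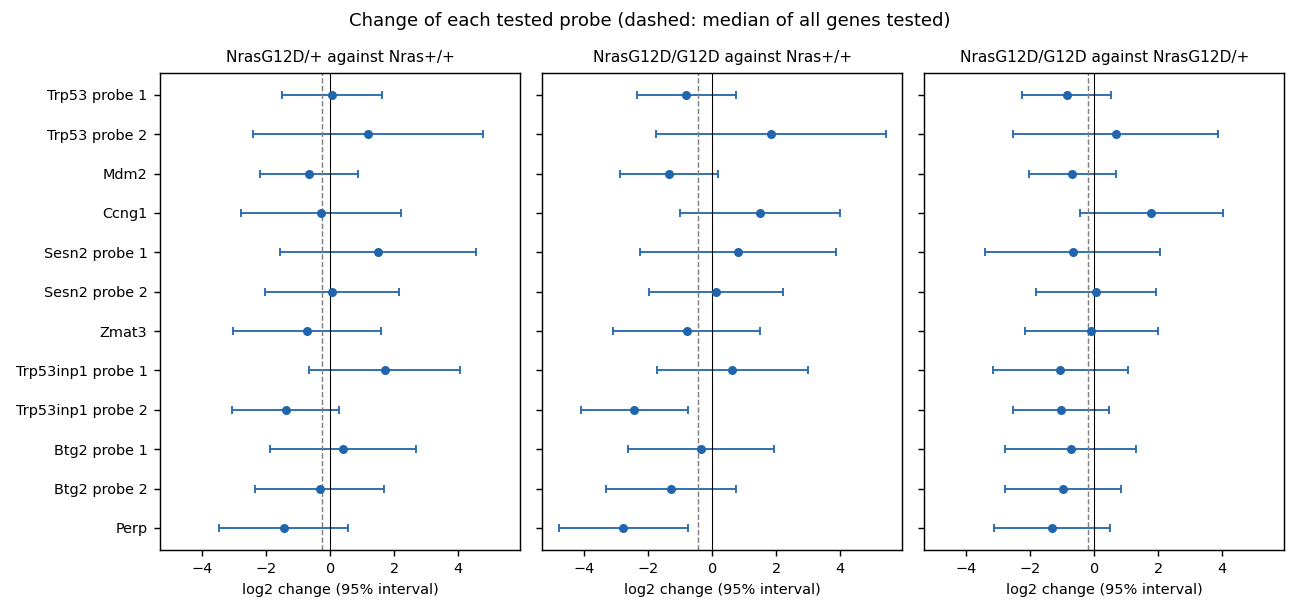
Log2 change (x axis) with its 95% interval from limma for the 12 tested probes (y axis) in the 3 comparisons; the dashed line is the median of all 14966 genes. Only the intervals of Trp53inp1 probe 2 and Perp for NrasG12D/G12D against Nras+/+ leave out 0, and neither has an adjusted p under 0.05.

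Taken over the 8 tested genes, the signs were mixed in NrasG12D/+ against Nras+/+, where 4 means were higher and 4 lower, beside 42.0% of all genes with a higher mean. In NrasG12D/G12D 3 of 8 means were higher than in Nras+/+, beside 35.6%, and 1 of 8 (Ccng1) was higher than in NrasG12D/+, beside 42.1%. The median log2 change of the members was -0.12, -0.58 and -0.72, where that of all genes was -0.25, -0.44 and -0.20. On the scaled level the groups did not overlap for 1 higher (Trp53inp1) and 1 lower gene (Mdm2) in NrasG12D/+ against Nras+/+, where 25.0% of all genes did not overlap. They did not for 1 higher (Ccng1) and 3 lower genes (Mdm2, Perp and Trp53) in NrasG12D/G12D against Nras+/+, where the background is 28.8%, and for 2 lower genes (Trp53 and Perp) between the mutants, where it is 11.5%. Split by direction, 8.96%, 6.04% and 2.79% of all genes were higher without overlap and 16.0%, 22.8% and 8.71% lower. For Trp53inp1 these counts used the repeat probe, while its probe 2 was lower without overlap in all 3 comparisons (log2 changes -1.39, -2.43 and -1.04). Without NrasG12D/+ replicate 1, the array with the high marker sums, the changes for NrasG12D/+ against Nras+/+ were -0.020 for Trp53, -0.47 for Mdm2, 0.12 for Ccng1, 2.37 for Sesn2, -0.16 for Zmat3, 1.23 for Trp53inp1, 0.013 for Btg2 and -1.47 for Perp. Between the mutants they were then -0.79, -0.88, 1.36, -1.56, -0.64, -0.60, -0.37 and -1.31 in the same order of genes, none with a changed sign. With the slide as a block, NrasG12D/G12D against Nras+/+ gave -0.26 for Trp53, -1.84 for Mdm2, 3.11 for Ccng1, -1.93 for Sesn2, -1.87 for Zmat3, 0.96 for Trp53inp1, 0.20 for Btg2 and -3.88 for Perp. The comparisons with Nras+/+ share the same 2 control arrays. Of the 12 tested probes, 3 (Mdm2, Trp53inp1 probe 2 and Perp) were detected on at least 3 arrays of slide 1 and on none of slide 2, as were 4.96% of all tested probes; the part of the slide in their lower readings was not tested.

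Other genes of the p53 network were read from lists, none of which had a gene past the threshold; of their 74 tested genes outside the members, 2, 3 and 1 had an unadjusted p under 0.05 in the 3 comparisons, shares below those of all genes (4.76%, 6.53% and 5.95%). Each list gene was read by its brightest tested probe. On the array Mdm4 had 5 probes. Ppm1d, Psrc1, Apaf1, Igfbp3 and Vegfa had 3 each, and Atm, Pml, Fas, Bnip3l and Klf6 had 2 each. Values of their other probes are not given here. Beside the lists, 42.0%, 35.6% and 42.1% of all genes had a higher mean, and the median changes of all genes were -0.25, -0.44 and -0.20. Among 11 tested of 23 listed regulators of p53, the mean was higher for 4, 2 and 5 genes, and the median changes were -0.53, -0.83 and -0.32. Atm, the kinase that signals double-strand breaks, gave 15.8 and 18.2 in Nras+/+, 11, 11.2 and 10.9 in NrasG12D/+ and 5.79, 6.51 and 4.01 in NrasG12D/G12D. It was above background on no homozygous array and at least 2.11-fold lower there than in Nras+/+ (log2 change -2.07, SE 0.78, adjusted p = 0.722). Mdm4, the partner of Mdm2 that masks the p53 activation domain, was within 63.1 to 99.4 on 7 arrays and at 452 on NrasG12D/+ replicate 1, with log2 changes of 0.37, -0.33 and -0.70. Usp10, a deubiquitinase of p53, had a log2 change of -1.70 in NrasG12D/G12D against Nras+/+, with no homozygous array above background, and Wrap53, an antisense neighbour of Trp53, of -0.88 in NrasG12D/+. Cdkn2a, whose p19Arf product frees p53 from Mdm2 under oncogene stress, was above background on no array and was not tested.

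Of 25 further targets in arrest and repair 18 were tested, with 10, 7 and 6 higher means and median changes of 0.02, -0.37 and -0.51. Cdkn1a gave 6.49 and 27.0 in Nras+/+, 532, 238 and 5.25 in NrasG12D/+, and 89.1, 6.97 and 182 in NrasG12D/G12D. On Nras+/+ replicate 2 all 10 spots of Cdkn1a were well above background, and on Nras+/+ replicate 1 only 2 were. Within each mutant genotype Cdkn1a was bright on 2 arrays, with all 10 spots well above background, and not above background on 1. Its log2 changes of 2.08 (SE 1.78) and 1.47 (SE 1.78) against Nras+/+ had adjusted p-values of 0.819 and 0.822, and with the slide as a block they were 3.68 and 6.27. On NrasG12D/+ replicate 3 and NrasG12D/G12D replicate 2, Trp53 probe 2 was detected and Cdkn1a was not, whereas NrasG12D/G12D replicate 3 had both, a comparison made after the values were seen. Ndn, the growth suppressor necdin, had 41.3 and 7.45 in Nras+/+, 1360, 644 and 90.8 in NrasG12D/+, and 800, 12.6 and 867 in NrasG12D/G12D. Its change of 3.98 in NrasG12D/+ (SE 1.65, adjusted p = 0.816) was among the largest of the lists. Ppm1d, the Wip1 phosphatase that switches p53 signalling off, was above background on 1 heterozygous array (73.0) and 2 homozygous arrays (60.8 and 33.6) and stayed at 2.46 or lower elsewhere. Gadd45a, a DNA damage response gene, was lower without overlap in both mutants, with changes of -0.73 and -1.14, adjusted p = 0.833 and 0.731. Psrc1 had a log2 change of 2.61 in NrasG12D/+ and Pml of -2.29 in NrasG12D/G12D, against Nras+/+, with adjusted p-values of 0.816 and 0.722.

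The apoptosis targets had 9 tested genes of 18, with medians of -0.13, -0.87 and -0.79. Bbc3, which encodes the BH3-only protein Puma, spanned 153 to 10600 within NrasG12D/+ alone, and 207 to 769 in Nras+/+ and 238 to 2640 in NrasG12D/G12D, with changes of 0.81, 0.90 and 0.09. Bax and Pmaip1 (Noxa), both p53-driven killers of the mitochondrial pathway, were above background on no array. Gdf15, a secreted stress cytokine, and Bnip3l, a mitophagy receptor, were higher without overlap in NrasG12D/+, with log2 changes of 3.46 and 1.63 (adjusted p = 0.816 for both). For Gdf15 the controls read 181 and 4.61, only the first above background, beside 146 on NrasG12D/+ replicate 3. The death receptor gene Fas was above background on no homozygous array, and its value of at least 4.60-fold lower than in Nras+/+ rested on 1 control array at 295 beside 1 at 4.63. Apaf1, the scaffold of the apoptosome, was above background on 1 control array, 2 heterozygous arrays and no homozygous array, so its levels give no fold. Its fitted log2 changes of -2.06 in NrasG12D/G12D against Nras+/+ and -1.60 against NrasG12D/+ were -0.51 and -0.57 with the slide as a block.

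**Figure D5:**
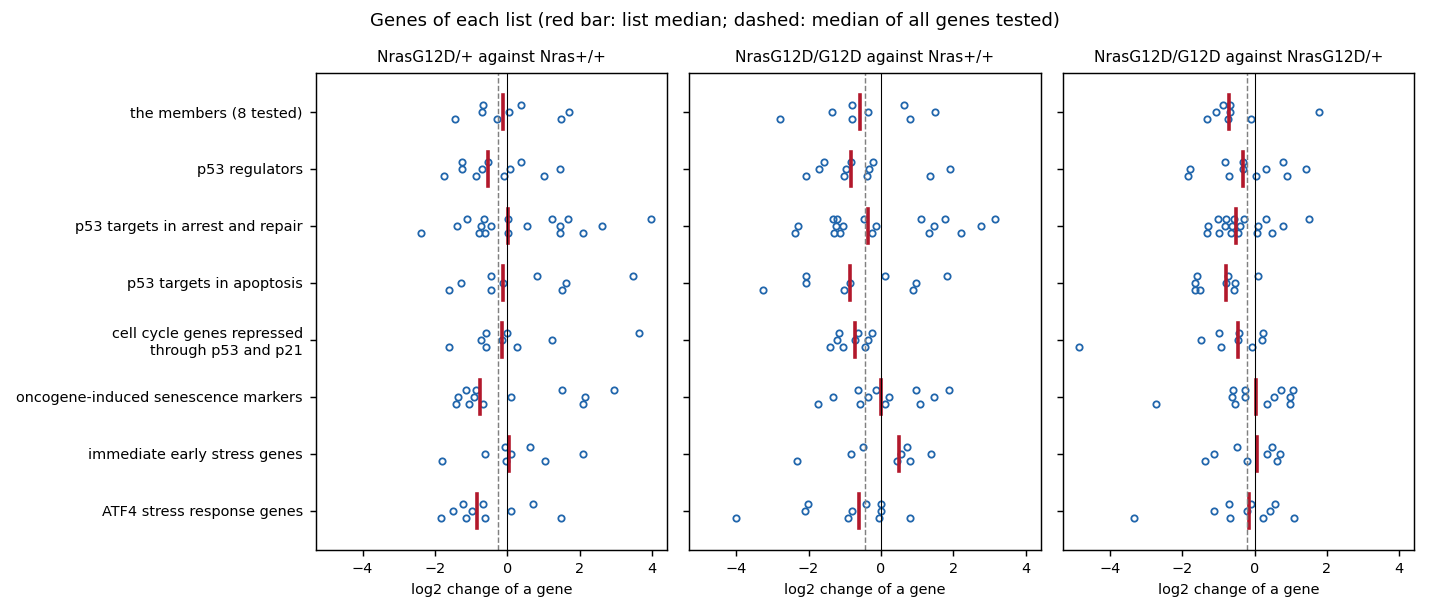
Log2 change of each tested gene (open points, x axis) in the members and 7 lists around p53 (y axis) in the 3 comparisons; red bars are list medians and the dashed line is the median of all genes tested. Points of every list lie on both sides of the dashed line in each comparison.

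Of the cell cycle genes that p53 represses through p21, 9 of 18 were tested, and 3, 0 and 2 had higher means, with medians of -0.15, -0.72 and -0.45. Of all genes, 42.0%, 35.6% and 42.1% had higher means, with medians of -0.25, -0.44 and -0.20. Plk1, a mitotic kinase, had 150 and 124 in Nras+/+, 1300, 599 and 160 in NrasG12D/+ and 143, 133 and 179 in NrasG12D/G12D. Its changes were 1.23 (adjusted p = 0.816) for NrasG12D/+ against Nras+/+ and -1.49 (adjusted p = 0.803) between the mutants. Foxm1, a driver of the mitotic programme, was -1.06 in NrasG12D/G12D against Nras+/+. Of 18 senescence markers 12 were tested, with medians of -0.76, -0.01 and 0.04. Among them Bhlhe40 was not above background in Nras+/+ and reached 50.6 and 21.3 in 2 heterozygous arrays (change 2.16, adjusted p = 0.816), and its change in NrasG12D/G12D was 1.89. Cdkn2b, the p15 inhibitor, was -1.74 in NrasG12D/G12D (adjusted p = 0.722) and Igfbp3 -1.42 in NrasG12D/+. Of 14 immediate early genes 8 were tested, with medians of 0.03, 0.50 and 0.07. Of them Atf3 had a change of 1.39 and Klf6 of 0.71 in NrasG12D/G12D, both higher without overlap, and Dusp1 of -0.62 in NrasG12D/+. Neither Atf3 nor Klf6 was above background in Nras+/+, and Atf3 was so on 1 homozygous array and Klf6 on 3.

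The ATF4 list, which shares Sesn2 with the members, had 10 tested genes of 12 and medians of -0.83, -0.61 and -0.16. Psat1, a serine synthesis enzyme, was at 29.2 to 46.0 on the 5 arrays with a wild-type Nras allele and at 4.13, 2.76 and 2.38 in NrasG12D/G12D. It was at least 4.56-fold lower than in Nras+/+ (log2 change -4.01, SE 0.80, adjusted p = 0.564) and at least 2.85-fold lower than in NrasG12D/+ (log2 change -3.33, adjusted p = 0.803). On slide 2, the heterozygous array read 39.3. Atf4 itself gave 22.1 and 20.8 in Nras+/+, 23.2, 20.5 and 10.2 in NrasG12D/+ and 6.19, 8.04 and 5.73 in NrasG12D/G12D, at least 2.67-fold lower in the last group than in the first (log2 change -2.10, adjusted p = 0.722). It was above background on both Nras+/+ arrays, 2 NrasG12D/+ arrays and no homozygous array. The heterozygous array of slide 2 read 10.2 for Atf4, and the part of the slide was not tested. Vegfa and Atf5 had changes of -1.82 and -1.23 in NrasG12D/+.

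Several of the list values moved by more than 1.5 times with the slide as a block. In NrasG12D/G12D against Nras+/+, Atm then had -3.32, Mdm4 -0.78, Usp10 -0.56, Pml -3.60, Bbc3 3.86, Foxm1 -2.25, Bhlhe40 4.39, Cdkn2b -2.997, Atf3 3.11 and Klf6 2.12. In NrasG12D/+ against Nras+/+, Bbc3 had 1.80 and Mdm4 0.23. Between the mutants Bbc3 had 2.07 and Plk1 -0.70, and Cdkn1a changed sign, from -0.61 without the block to 2.59 with it.

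The genes whose scaled level followed a member most closely over the 8 arrays were sought among 5647 genes above background on every array. For Trp53 probe 1 they were an unnamed transcript (TC1671222, Pearson r = 0.90), Sfn (0.89) and Palld (0.89). For Sesn2 probe 1 they were Txndc9 (0.93), Ltbp4 (0.90) and Clptm1l (0.90), and for Btg2 probe 1 Nxt1 (0.93), Sorcs1 (0.91) and Lsm7 (0.91). These are the highest of 5647 correlations per gene over 8 points that share arrays and scaling, and they are given as a description.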

How the data were processed

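Per the file headers, Agilent Feature Extraction 10.5.1.1 wrote the deposited scanner files, and the authors' processed signal is a linear intensity, background-subtracted and not scaled between arrays. The mean signal and background, used for normexp, are intensities as scanned. Detection and outlier flags of 0 or 1 are other columns, per the file headers. The deposited value table is a ratio, each array's processed signal over its median (largest relative deviation 1.7e-06). Labelling followed a service protocol whose steps were not given in the sources used here.

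From these, outlier-flagged spots (120 to 464 per array, 3 of them of the members, on NrasG12D/G12D replicate 1) were dropped, no spot was saturated, and a probe's value was the mean log2 signal of its spots. A probe counted as detected on an array where the flag was set on most of its spots. Tested probes had detection, a signal well above background, on 2 or more arrays and a measured spot on at least 2 arrays of each group. limma 3.58.1 (lmFit, eBayes, two-sided) in R 4.3.3 fitted the 3 groups together, with p-values adjusted by Benjamini-Hochberg over 14966 genes (18220 probes when each stood by itself). The fit was tested on simulated data. Precision is limited by the number of arrays, with a median SE of 0.96 against Nras+/+ and 0.86 between the mutants. A bound (at least N-fold) sets the mean of the group with detection against, per array, the higher of the lowest detected signal and the probe's own. Probes were named through a RefSeq table (24375 by accession, 6301 by symbol, 2419 by synonym), and 8079 kept the name in the file.

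The members and lists were chosen with earlier results of these data known. Named genes are all members, 9 p53 genes whatever their values, and in each list and comparison the 2 tested genes of largest change without overlap. Alternatives covered scaling, background correction (normexp with an offset of 50), the filter on dim probes and the probe of a gene. They also covered the value table, slide, replicate number and leaving out each array.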

Additional observations from a re-analysis of the deposited data

How the results depend on the processing

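No member and no list gene passed the threshold in any alternative. Under alternatives other than leaving out an array, 204 member values kept their direction and 13 reversed. The 204 include values that could not move. Every probe by itself (24 values), no filter on dim probes (24) and probes detected on all 8 arrays (9) left the log2 changes unchanged. The replicate block did so between the mutants, and fits within a slide repeat the values of the slide block. Reversed were Trp53 in NrasG12D/+ under quantile normalization (-0.42), Ccng1 in NrasG12D/+ with slide as a block and within slide 1 (0.25 in both), and Sesn2 in NrasG12D/G12D with the slide block (-1.93). Btg2 in NrasG12D/G12D turned to 0.13 when scaled over all probes, 0.27 in the deposited value table and 0.20 with the slide block. Between the mutants, Zmat3 turned to 0.23 (all probes), 0.24 (quantile), 0.20 (normexp) and 0.36 (value table), Mdm2 to 0.062 and Perp to 0.074 with normexp. Normexp also shrank, without a change of sign, Perp (-0.66) and Mdm2 (-0.43) in NrasG12D/G12D and Trp53inp1 in NrasG12D/+ (0.44). The normexp setting adds an offset of 50 to every signal, which by itself shrinks log2 changes of dim probes. The part of other causes was not tested.

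Leaving out single arrays reversed 15 values, while 177 kept their direction. An array of the group outside a comparison cannot change its log2 change when left out, and such values are among the 177. In NrasG12D/+ against Nras+/+, Trp53 ranged from -0.076 to 0.24 (negative without Nras+/+ replicate 1, NrasG12D/+ replicate 1 or replicate 2), Ccng1 from -1.25 to 0.25 and Btg2 from -0.63 to 1.41. In NrasG12D/G12D against Nras+/+, Sesn2 ranged from -0.089 to 1.92, Trp53inp1 from -0.22 to 1.41 and Btg2 from -1.38 to 0.67 (positive without Nras+/+ replicate 2 or NrasG12D/G12D replicate 1). Between the mutants, Sesn2 ranged from -1.57 to 0.43 and Zmat3 from -0.89 to 0.66 (positive without NrasG12D/+ replicate 2 or 3 or NrasG12D/G12D replicate 1).

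Genes of the whole array past the threshold numbered 0 in each comparison. For NrasG12D/+ against Nras+/+ there was 1 when scaled over all probes, under quantile normalization, in the value table and with no filter on dim probes, and 0 to 9 when arrays were left out (9 without Nras+/+ replicate 2). For NrasG12D/G12D against Nras+/+ there was 1 under quantile normalization, with no filter and with the slide block, and 0 to 8 when arrays were left out (8 without Nras+/+ replicate 2). Between the mutants there were 4 with the slide block and 0 to 2 when arrays were left out.

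Deviations of same-numbered arrays correlated between -0.09 and 0.07 over probes, and those of arrays with other numbers between -0.12 and 0.11. They are deviations from means of very few arrays, so they cannot tell whether replicate numbers pair the samples. With the replicate block, 0 genes passed in each comparison, and Perp in NrasG12D/G12D against Nras+/+ was -2.99.

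Detection limits most members. By the files' less strict flag (signal positive and significant), the counts of arrays above background rose from 4 to 8 for Mdm2 and from 3 to 8 for Trp53 probe 2. They rose from 4 to 8 for Trp53inp1 probe 2 and from 3 to 7 for Perp. The group differences of Mdm2, Trp53inp1 probe 2 and Perp thus rest on readings near background. Those of Trp53 probe 2 rest on 3 arrays with all 10 spots well above background, set against arrays near background. Restricting the test to probes detected on all 8 arrays left Trp53, Sesn2 and Btg2 of the members.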
